A study of Mus musculus with 12 samples.

Results

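The experiment described here compared SUZ12-AID cardiac precursors grown with auxin against the same line grown without it. It comprises 4 of the 12 RNA-seq libraries of the series, 2 per group, and the comparison ran over 14653 of 35856 listed genes, those that reached 1 TPM in 2 or more of the 4. TPM counts transcripts after scaling for gene length and for library size. Cardiac precursors are mesodermal cells that can form heart muscle, and here they were differentiated from C57BL/6 mouse embryonic stem cells through 48 h as embryoid bodies, 43 h after reaggregation with human VEGF, Activin A and BMP4, and 32 h as a monolayer with VEGF, basic FGF and FGF10. Both groups carry the same genotype, a SUZ12 protein fused to an auxin-inducible degron (AID) together with Tir1, the plant receptor that sends AID-tagged proteins to the proteasome. The untreated group received no compound, and the auxin group received indole-3-acetic acid (IAA) at 50 µM. The other 8 libraries, used only for a side-by-side view at the end, come from lines of the same strain with Tir1 and a degron on MTF2 (MTF2-AID) or JARID2 (AID-JARID2), 2 untreated and 2 auxin libraries each. The labels give neither the start nor the length of the treatment, nor the promoter of Tir1, nor the number of clones behind the line. Libraries without an AID tag were not analysed here, so effects of IAA itself and of loss of SUZ12 cannot be told apart. The series calls the libraries of a group biological replicates without naming separate cultures, and p values then measure only the spread between these samples.

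SUZ12 is a structural core subunit of Polycomb repressive complex 2 (PRC2). The complex places methyl groups on lysine 27 of histone H3, and the mark keeps many developmental regulators silent in cells that do not use them. Genes with that kind of control are known to lie mainly at CpG-rich promoters and to include homeobox, forkhead, T-box, SOX and GATA factors, signalling ligands and the cell-cycle inhibitors of the Cdkn2a locus. During heart formation PRC2 is known to restrain programmes of other lineages.

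The 4 libraries held between 11008495 and 17173072 assigned reads, recovered from the TPM steps, with fewer reads in both auxin libraries than in both untreated ones. Despite that, 14609 and 14940 genes reached 1 TPM with auxin against 13681 and 13927 without. Replicates of SUZ12-AID lay farther apart than those of the other lines, with a median absolute log2 difference of 0.196 without and 0.14 with auxin, against 0.085 to 0.099 in the MTF2-AID and AID-JARID2 groups. Between an untreated and an auxin library of the same number it was 0.193 and 0.214, so most genes differed between groups by about as much as between untreated replicates. Suz12 RNA (mm10, chromosome 11, 79993106 to 80034123, plus strand) stood at 113 and 127 TPM without and 106 and 109 TPM with auxin, and it did not pass the test (log2 fold change -0.15, adjusted p = 0.428). The degron acts on the protein, which was not measured here. Of 12 markers of cardiac precursors, 11 were measured, and Tbx5 stayed under 1 TPM in all 4 libraries. Hand1 supplied most of the summed level of that list, which was 2622 and 2948 TPM without and 1649 and 1548 TPM with auxin.

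Auxin was followed by many more increases than decreases. In the test across all genes (limma, adjusted p under 0.05), 1013 genes rose (6.91%) and 131 fell (0.894%), 7.81% in all. At least 2-fold changes on the log2(TPM + 1) scale were called for 623 higher genes (4.25%) and 45 lower genes (0.307%), 4.56% in all. The increases had a median log2 fold change of 1.08 and the decreases one of -0.75, while the median over all genes was 0.06. Among the increases 909 had a gene name, 80 a placeholder symbol and 19 were short RNAs such as microRNA precursors, which polyadenylated libraries measure poorly. Among the decreases 27 of 131 were such short RNAs. Increases made up 88.5% of the calls. When the columns were rescaled by median-of-ratios, the log2 fold change of the median gene moved by -0.124, and 937 genes rose and 266 fell (77.9% increases). Quantile normalization gave 635 and 205 (75.6%), and without untreated replicate 1 or auxin replicate 2 the split was 1650 to 820 (66.8%) or 382 to 112 (77.3%). More increases than decreases were called under each of these settings. When a library is left out, its group holds 1 library, which is assumed to vary like the other group, here and wherever a call is said to be lost without a replicate.

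The increases sat at the lower end of expression and the decreases reached into its top. Of genes at 1 to 10 TPM without auxin 10.1% rose and 0.726% fell (4821 measured). Between 10 and 100 TPM 4.23% rose and 0.665% fell (6922 measured), and from 100 TPM upwards 2.35% rose and 2.5% fell (2000 measured). Under 1 TPM a gene could enter the test almost only through the auxin libraries, so the 186 increases among 910 such genes show nothing about direction. In all, 596 genes entered through the auxin libraries alone and 65 through the untreated ones alone. Of the other 13992 genes 849 rose (6.07%) and 103 fell (0.736%).

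**Figure D1:**
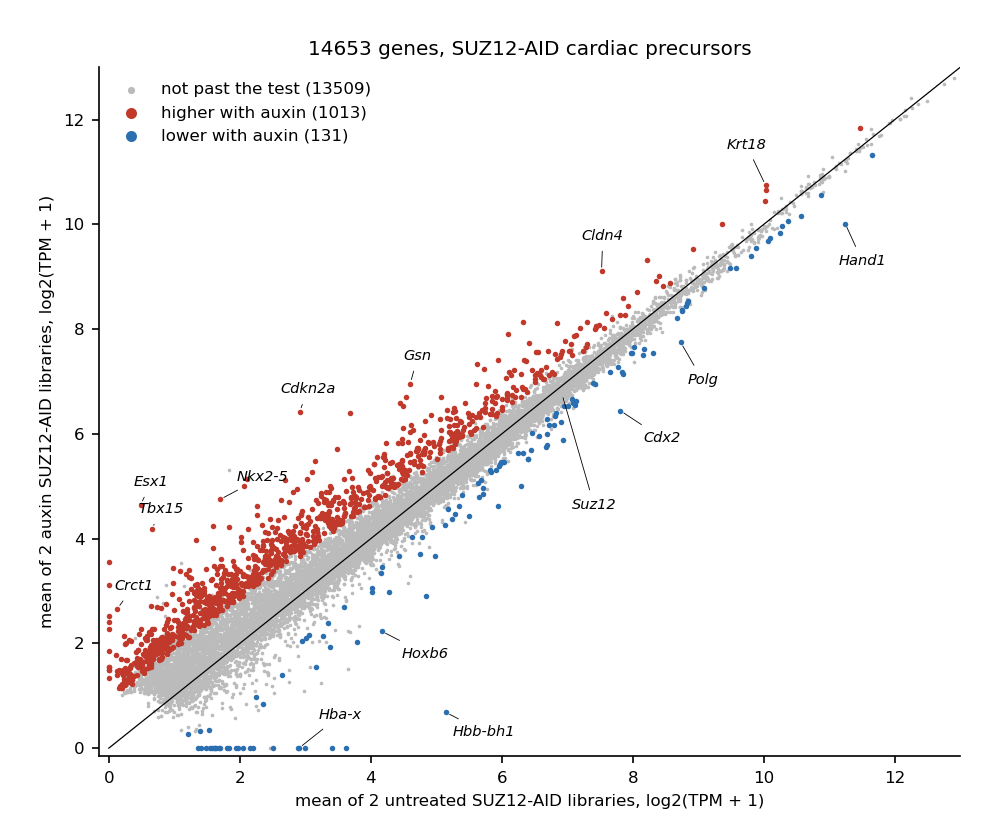
Mean level of each of 14653 genes with auxin (vertical) against without (horizontal), both as log2(TPM + 1) over 2 SUZ12-AID libraries; the line marks equal levels. The 1013 genes that rose spread above the line mostly at low and middle levels, the 131 that fell lie below it up to Hand1 near the top right, and the row of points at 0 on the vertical axis is mostly short RNAs.

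The largest increase belonged to a homeobox gene of the placenta. Esx1 (X-linked; chromosome X, 137115397 to 137122083, minus strand) encodes a homeodomain factor known from extraembryonic tissue and male germ cells. It stood at 0.454 and 0.347 TPM in the untreated libraries and 22.3 and 25.8 TPM in the auxin libraries, which is 6 and 4 reads against 233 and 205 reads. Its log2 fold change on the log2(TPM + 1) scale was 4.16 (SE 0.20, adjusted p = 0.001504). Tbx15 (chromosome 3, 99240381 to 99354259, plus strand), a T-box factor of skeletal and limb mesenchyme, went from 0.615 and 0.539 to 16.8 and 17.5 TPM. For both genes the auxin libraries agreed closely and lay far above the untreated ones. Esx1 and Tbx15, like Crct1 further down, entered the test through the auxin libraries alone. Their direction was thus fixed beforehand, and the p value is a description and not evidence of it. Nkx2-5 (chromosome 17, 26838664 to 26845009, minus strand), a homeobox factor of the heart field, had 2.77 and 1.73 TPM without and 28.4 and 23.4 TPM with auxin. The retinal and ventral forebrain homeobox gene Vax2 was uneven between untreated libraries, at 0.329 and 1.63 TPM, and even with auxin at 10.1 and 9.49 TPM. Six2, a homeobox factor of kidney progenitors and of craniofacial mesenchyme, rose from 6.16 and 6.45 to 30.7 and 29.2 TPM (log2 fold change 2.08, adjusted p = 0.00276). Rhox6 and Rhox9, neighbouring X-linked homeobox genes of placenta and gonad, completed the transcription factors among the 30 largest increases. Rhox6 read 2.34 and 0.716 TPM without and 9.303 and 20.04 TPM with auxin, and Rhox9 2.603 and 1.404 TPM without and 10.5 and 15.8 TPM with auxin. Their replicates lay farther apart than those of Six2 or Tbx15. The groups did not overlap, which the choice of the 30 required.

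The other 23 of the 30 largest increases did not encode transcription factors. Cdkn2a (chromosome 4, 89274471 to 89294653, minus strand), which encodes the p16 and p19 inhibitors of the cell cycle, had 5.59 and 7.49 TPM without and 88.6 and 81.1 TPM with auxin. Cdkn2b, the adjacent p15 gene, had 5.23 and 5.11 TPM without and 21.6 and 29.6 TPM with auxin. Both rose (log2 fold changes 3.52 and 2.09, adjusted p = 0.001504 and 0.00594). The kinase gene Plk3, known as a stress-responsive polo-like kinase, also rose, from 5.68 and 6.38 to 25.5 and 31.6 TPM.

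Epithelial and surface proteins were among the others. Krt7, a simple-epithelium keratin, went from 4.26 and 2.34 to 31.5 and 37.3 TPM. Plet1, a surface protein known from placenta and epithelial progenitors, had 8.56 and 6.54 TPM without and 34.6 and 40.5 TPM with auxin. In both the auxin libraries lay well above the untreated ones. Emp1, an epithelial membrane protein, rose from 1.21 and 1.29 to 7.58 and 10.6 TPM, and Crct1, a gene of the epidermal differentiation complex, from 0.188 and 0 to 4.06 and 6.59 TPM. Gprc5a, an orphan receptor induced by retinoic acid, rose from 2.98 and 3.35 to 25 and 37.4 TPM.

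Some of the 30 encode calcium-binding, cytoskeletal or metal-binding proteins. Anxa1, an annexin that binds membranes in the presence of calcium, had 11.8 and 11.98 TPM in the untreated libraries and 71.6 and 94.1 TPM in the auxin libraries. S100a6, an EF-hand protein, had 23.7 and 20.9 TPM without and 95.01 and 110.2 TPM with auxin, and Gsn, the actin-severing protein gelsolin, 24.9 and 21.6 TPM without and 108 and 139 TPM with auxin. Each of these 3 rose (log2 fold changes 2.69, 2.15 and 2.35). Lgals3, a galactoside-binding lectin, ended at 95.8 and 94.6 TPM from 22.3 and 19.3, and the metallothionein Mt3 at 9.55 and 9.62 TPM from 1.26 and 1.44. The call for Mt3 was lost in the weighted fit of 12 libraries. It was the only 1 of the 30 increases lost under an alternative other than the fit without a filter on low values. That fit lost 5. Esx1, Tbx15 and Crct1 no longer met the filter without an auxin replicate and were not tested there.

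The rest included secreted and vascular proteins. Igfbp5, a binding protein of insulin-like growth factors, rose from 5.65 and 5.21 to 36.4 and 31.3 TPM, and the matrix phosphoprotein osteopontin, Spp1, from 3.34 and 4.29 to 20.2 and 26.7 TPM. Trh, the precursor of thyrotropin-releasing hormone, rose from 2.44 and 2.68 to 15.2 and 20.3 TPM. In all 3 the lower auxin library was over 4 times the higher untreated library. Plaur, the urokinase receptor, had 10.9 and 9.58 TPM without and 50.5 and 52.04 TPM with auxin. Cldn5, Cd34 and Esam are genes of vessel lining. The junction protein gene Cldn5 had 2.48 and 1.53 TPM without and 20.8 and 14.9 TPM with auxin, Cd34, a sialomucin of vessels and blood progenitors, 3.04 and 4.55 TPM without and 20.3 and 21.4 TPM with auxin, and Esam, an adhesion molecule of endothelial junctions, 3.77 and 2.99 TPM without and 18.6 and 15.9 TPM with auxin. The transporter gene Abcc3 went from 1.01 and 0.915 to 6.88 and 8.92 TPM and Dppa5a, a pluripotency marker, from 6.74 and 7.49 to 29.1 and 39.3 TPM.

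The 2 largest decreases were those of embryonic globin genes. Hbb-bh1, a beta-like globin of yolk-sac red cells, had 41.2 and 27.7 TPM without and 0.842 and 0.369 TPM with auxin, or 186 and 109 reads against 3 and 1. Hba-x, the embryonic alpha-like globin (chromosome 11, 32276400 to 32278116, plus strand), had 6.52 and 6.44 TPM without auxin and 0 reads in both auxin libraries. Set against a floor of 3 reads per auxin library, its mean was at least 6.55-fold lower with auxin. Hbb-bh1 and Hba-x entered the test through the untreated libraries alone, so both could only be lower with auxin. The sum of 6 markers of primitive red cells was 56.5 and 44.7 TPM without and 7.99 and 7.32 TPM with auxin, and Hbb-bh1 and Hba-x supplied most of the untreated sum. Of the rest Hbb-y fell (limma, adjusted p = 0.0197). Gata1 (mean 2.32 TPM without and 0.809 with auxin, adjusted p = 0.0606), Tal1 (2.41 and 3.96, adjusted p = 0.259) and Klf1 (1.24 and 1.32, adjusted p = 0.993) were not called. In RNA from a whole culture, fewer cells of a type and less RNA per cell cannot be told apart.

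Homeobox genes made up several of the other decreases, while other homeobox genes rose. Hoxb6 went from 15.9 and 18.1 to 4.34 and 3.05 TPM, and Hoxb1 from 7.53 and 8.42 to 1.72 and 2.16 TPM. Cdx2, a homeobox factor of the posterior embryo and of trophectoderm, had 234 and 212 TPM without and 98.8 and 73.2 TPM with auxin. Its relative Cdx4 went from 3.302 and 4.95 to 0.751 and 0.847 TPM, although that call was lost in the weighted fit of 12 libraries (and with no filter). Cdx4 also entered the test through the untreated libraries alone. Pitx1, a homeobox factor of the hind limb, fell from 31.4 and 29.9 to 14.7 and 8.704 TPM and Irx3, an Iroquois factor, from 76.4 and 77.8 to 36.4 and 25.9 TPM. All 4 libraries kept these genes in the same order, with no auxin library above an untreated one.

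The other decreases named here were chosen by size and share no single role. Hand1, a bHLH factor of extraembryonic and cardiac mesoderm, was the most abundant gene among the decreases apart from the tubulin Tubb5, at 2291 and 2552 TPM without and 1077 and 989.8 TPM with auxin. Foxf1, a forkhead factor of lateral mesoderm, went from 87.8 and 118 to 53.7 and 54.03 TPM, and Fendrr, the long non-coding RNA that is transcribed next to it, from 13.6 and 16.6 to 7.16 and 7.52 TPM. Nkx2-3, a homeobox factor of gut and spleen mesenchyme, fell from 7.03 and 6.45 to 3.16 and 3.09 TPM, and the ligand gene Fgf3 from 98.3 and 104 to 54.6 and 51.6 TPM. The auxin libraries of these 5 genes agreed closely and lay below both untreated ones, the latter being required by the choice. Cldn11, a claudin of glia and Sertoli cells, fell from 25.8 and 29.6 to 5.85 and 7.22 TPM, Tdo2, a tryptophan-degrading enzyme, from 59.9 and 61.5 to 25.2 and 22.03 TPM, and Padi3, which converts arginine to citrulline in proteins, from 26.2 and 25.9 to 11.9 and 12.3 TPM. Polg, the mitochondrial DNA polymerase, fell from 374 and 472 to 214 and 215 TPM. Cd59a, Fendrr, Fermt3, Hist1h3a and Nkx2-3 were the 5 of 20 decreases whose call was lost under an alternative other than the fit with no filter, which lost 14 of the 20. Hbb-bh1 and Hba-x were not tested without an untreated replicate.

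**Figure D2:**
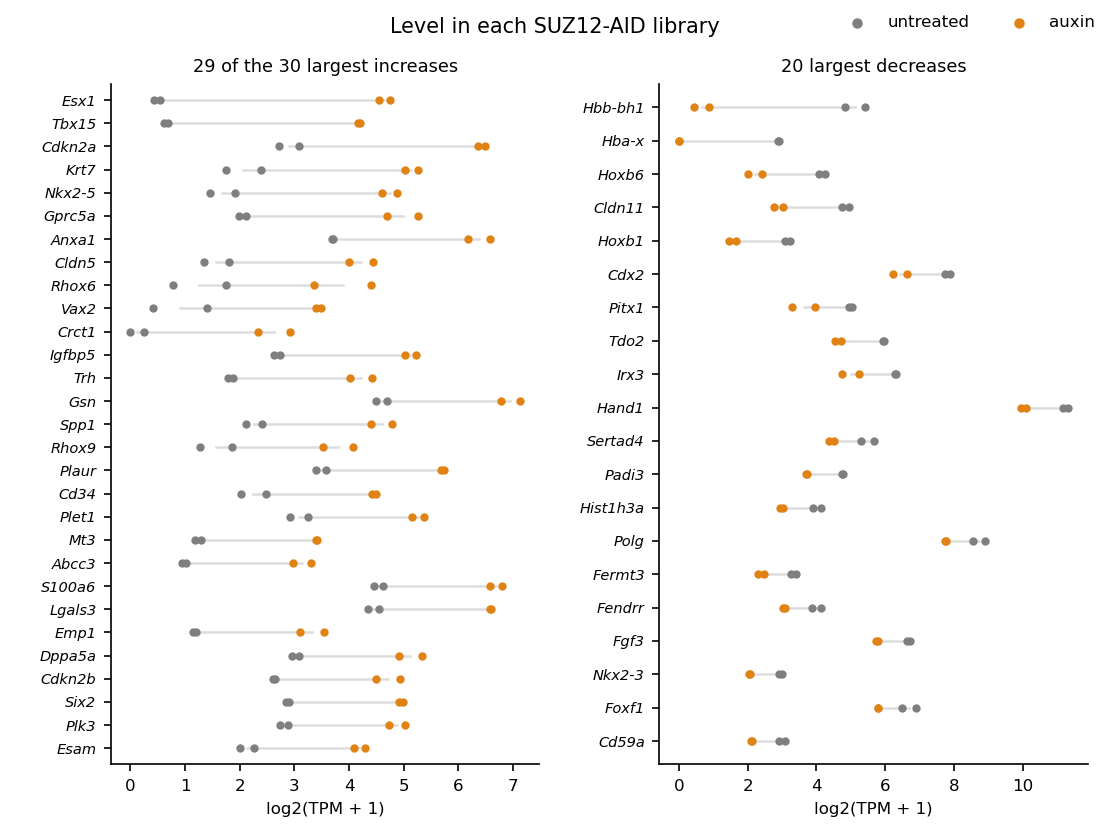
Level of 29 of the 30 largest increases (left) and 20 largest decreases (right) in each SUZ12-AID library, as log2(TPM + 1); grey points are the 2 untreated and orange points the 2 auxin libraries, and a line joins the group means. The groups do not overlap for any of these genes, which the choice of genes required, and replicates lie farthest apart for Rhox6, Vax2, Pitx1 and Krt7.

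Genes near silent before the treatment were examined separately, over the whole table. Near silent was taken as under 0.5 TPM in both untreated libraries and switched on as at least 1 TPM in both auxin libraries. Of 19887 near-silent genes 133 were switched on (0.669%), against 28 of 18607 in the reverse direction (0.15%). Without short RNAs, which rested on 1 to 6 reads per library where they were above 0, the numbers were 126 and 7. These genes were chosen by their levels, so the 76 of 133 that also passed the test are a description and not evidence of a change. The weakest members reached 1.01 TPM in their lower auxin library or stood at 0.499 TPM without auxin, and genes just outside reached 0.995 TPM or stood at 0.5003 TPM. A choice that does not use the untreated SUZ12-AID libraries gave the same order, although only 33 of the 133 genes met it. Of 18769 genes under 0.5 TPM in all 4 untreated libraries of MTF2-AID and AID-JARID2, 77 were at 1 TPM or more in both SUZ12-AID auxin libraries and 17 in both untreated ones (74 and 7 without short RNAs).

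Most switched-on genes stayed weak. The 99 with a gene name had a median of 1.56 TPM with auxin, 18 reached a mean of 2 TPM and 2 reached 5 TPM, Esx1 and Crct1. Both libraries together held a median of 11 reads per gene without and 47 with auxin. Sorted by product after their identity was known, 16 were transcription factors, 19 enzymes, 16 receptors, channels, transporters or surface proteins, 13 secreted or matrix proteins, 4 germ-cell or egg proteins and 4 keratins or cytoskeletal proteins, and 27 were not sorted. By this sorting 13 of 16 transcription factors passed the test, 9 of 13 secreted proteins, 10 of 19 enzymes and 5 of 16 surface proteins. Over all 99 named genes 52 passed. Each could only be higher by the way it was chosen, so these shares do not rank the classes.

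The transcription factors came from several lineages. En1 (chromosome 1, 120602418 to 120607992, plus strand), a homeobox factor of midbrain and limb ectoderm, had 0.317 and 0.424 TPM without and 3.69 and 3.35 TPM with auxin, on 6 and 7 reads and 55 and 38 reads. Zic1 (chromosome 9, 91358058 to 91365810, minus strand), a zinc-finger factor of dorsal neural tube, had 0.143 and 0.246 TPM without and 2.51 and 3.498 TPM with auxin on 6 and 9 reads and 83 and 88 reads. Each had more than 5 times as many reads in either auxin library as in either untreated library. Alx1, a factor of craniofacial mesenchyme, had 0.291 and 0.445 TPM without and 2.65 and 2.67 TPM with auxin, and Hoxa5 0.432 and 0.247 TPM without and 2.46 and 2.64 TPM with auxin. Tcf24, a bHLH factor, had 0.252 and 0.289 TPM without and 2.84 and 3.47 TPM with auxin, and Tfap2e, an AP-2 family factor, 0.255 and 0.146 TPM without and 1.94 and 2.45 TPM with auxin. Foxa2, the pioneer factor of endoderm and floor plate, differed more between auxin libraries (0.228 and 0.261 TPM without, 1.44 and 2.37 TPM with auxin), and its call was lost after quantile normalization. Rhox1, Hoxd10, Ebf1 and Rhox2h were other members with a call, and Nfe2l3, Pou2f3 and Rhox4e had none.

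For 4 genes the 250 bases upstream of the RefSeq start (GRCm38.p6) are shown, since promoters rich in CpG are where PRC2 is known to act. They are 3 switched-on transcription factor genes and, for contrast, the globin gene that went to 0 reads. Sequences run 5′ to 3′ on the strand of the gene, and capitals mark every CG, which reads the same on both strands. RefSeq and GENCODE place these starts differently, and for Esx1 the window lies inside the gene as GENCODE has it. The windows are chrX:137120327-137120576, minus strand for Esx1, chr1:120602237-120602486, plus strand for En1, chr9:91365769-91366018, minus strand for Zic1 and chr11:32276350-32276599, plus strand for Hba-x.
Esx1: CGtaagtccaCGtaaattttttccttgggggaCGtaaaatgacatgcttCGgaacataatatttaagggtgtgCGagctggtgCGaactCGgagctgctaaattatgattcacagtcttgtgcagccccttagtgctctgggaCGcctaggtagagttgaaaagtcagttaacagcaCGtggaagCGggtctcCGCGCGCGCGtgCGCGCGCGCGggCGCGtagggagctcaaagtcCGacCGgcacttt
En1: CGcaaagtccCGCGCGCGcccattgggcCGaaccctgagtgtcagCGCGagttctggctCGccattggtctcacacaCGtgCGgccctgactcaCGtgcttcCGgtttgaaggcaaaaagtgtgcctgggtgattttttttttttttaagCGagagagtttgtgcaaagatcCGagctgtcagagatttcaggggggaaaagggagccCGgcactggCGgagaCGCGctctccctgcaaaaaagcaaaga
Zic1: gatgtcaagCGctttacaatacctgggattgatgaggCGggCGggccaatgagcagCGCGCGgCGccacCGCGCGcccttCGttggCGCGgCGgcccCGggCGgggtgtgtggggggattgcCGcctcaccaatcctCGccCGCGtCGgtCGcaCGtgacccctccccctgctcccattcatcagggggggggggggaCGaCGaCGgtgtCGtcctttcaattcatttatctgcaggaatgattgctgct
Hba-x: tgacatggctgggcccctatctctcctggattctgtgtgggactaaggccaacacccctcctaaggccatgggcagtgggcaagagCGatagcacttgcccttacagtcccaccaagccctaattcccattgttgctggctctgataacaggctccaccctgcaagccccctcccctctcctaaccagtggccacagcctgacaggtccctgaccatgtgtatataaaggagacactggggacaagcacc
Esx1 had 24 CG in this window, En1 19 and Zic1 27, and 11.7%, 19.6% and 8.16% of 27025 RefSeq promoters of this length had as many or more. Hba-x had 1 CG, as many or more of which occurred in 91.7% of promoters, and the median over all promoters was 6. In Esx1 the CG crowd towards the 3′ end of the window and include runs of alternating C and G. High CG content was not shared by all: among other switched-on genes the Rhox2h window held 5 and those at 2 starts of Cav1 held 10 and 12, and the Nkx2-5 window held 8. The table matched 75.8% of the 99 named genes and 72.4% of the genes tested, which is under the 80% needed, so a comparison of the groups is void and was not made.

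Secreted proteins and enzymes among the switched-on genes belonged to diverse tissues. Spink1, a trypsin inhibitor of pancreas and visceral endoderm, had 0 and 0.367 TPM without and 3.25 and 2.67 TPM with auxin. Lefty2, a Nodal antagonist, had 0.382 and 0.437 TPM without and 2.07 and 1.82 TPM with auxin, the natriuretic peptide gene Nppb 0.458 and 0.3498 TPM without and 2.51 and 1.78 TPM with auxin, and the guidance cue Sema3c 0.2997 and 0.219 TPM without and 1.66 and 2.32 TPM with auxin. Collagen genes Col14a1 and Col8a2 went from 0.4396 and 0.438 to 2.83 and 2.103 TPM and from 0.4399 and 0.445 to 1.64 and 2.03 TPM. Read numbers were small throughout, with 3 and 2 reads of Nppb and 0 and 1 of Spink1 in the untreated libraries. Among enzymes, Ptgs2, the inducible prostaglandin synthase, had 0.333 and 0.382 TPM without and 1.92 and 1.92 TPM with auxin, Dhrs9, a retinol dehydrogenase, 0.0479 and 0.2198 TPM without and 1.94 and 2.56 TPM with auxin, and Prss16, a protease of thymic epithelium, 0.377 and 0.288 TPM without and 1.99 and 2.301 TPM with auxin. Sgpp2, which dephosphorylates sphingosine 1-phosphate, had 0.366 and 0.315 TPM without and 1.86 and 2.09 TPM with auxin.

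Surface and germ-cell genes made up smaller sets. Cav1, the scaffold protein of caveolae, had 0.324 and 0.478 TPM without and 2.995 and 4.63 TPM with auxin. Msln, the surface protein of mesothelium, had 0.121 and 0.347 TPM without and 1.92 and 4.44 TPM with auxin, and Nrn1, a neuritin anchored in the membrane, 0.281 and 0.0806 TPM without and 2.05 and 1.64 TPM with auxin. In Msln and in Fthl17a, a ferritin-like gene of early germ cells (0.152 and 0 TPM without and 1.35 and 3.55 TPM with auxin), the second auxin library held over 2 times the first, and both calls were lost with a pseudocount of 5 and after quantile normalization. Tuba3a, a testis tubulin, had 0.179 and 0.205 TPM without and 1.36 and 2.39 TPM with auxin, and Otud6a, a deubiquitinase, 0.155 and 0.177 TPM without and 1.57 and 2.06 TPM with auxin. Usp17la and Usp17lb, near-identical deubiquitinase genes that lie side by side on chromosome 7, were the only named neighbours to be switched on together. Usp17la rose from 0.306 and 0.175 to 1.42 and 1.7 TPM, while Usp17lb, at 0.261 and 0.498 TPM without and 1.21 and 2.32 TPM with auxin, did not pass (adjusted p = 0.07695), and reads may be split between such copies.

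In the reverse direction 4 of the 28 genes had names, and all 4 passed the test. They were Hba-x, the erythroid factor gene Nfe2 (1.69 and 2.097 TPM without, 0.06104 and 0.482 TPM with auxin), the endothelial ligand gene Gdf2, also known as BMP9 (1.45 and 1.19 TPM without and 0.172 and 0.226 TPM with auxin), and Scg5, a neuroendocrine chaperone (1.76 and 1.51 TPM without and 0.1395 and 0.367 TPM with auxin). Apart from Nfe2, no named transcription factor went from 1 TPM or more to near silent.

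**Figure D3:**
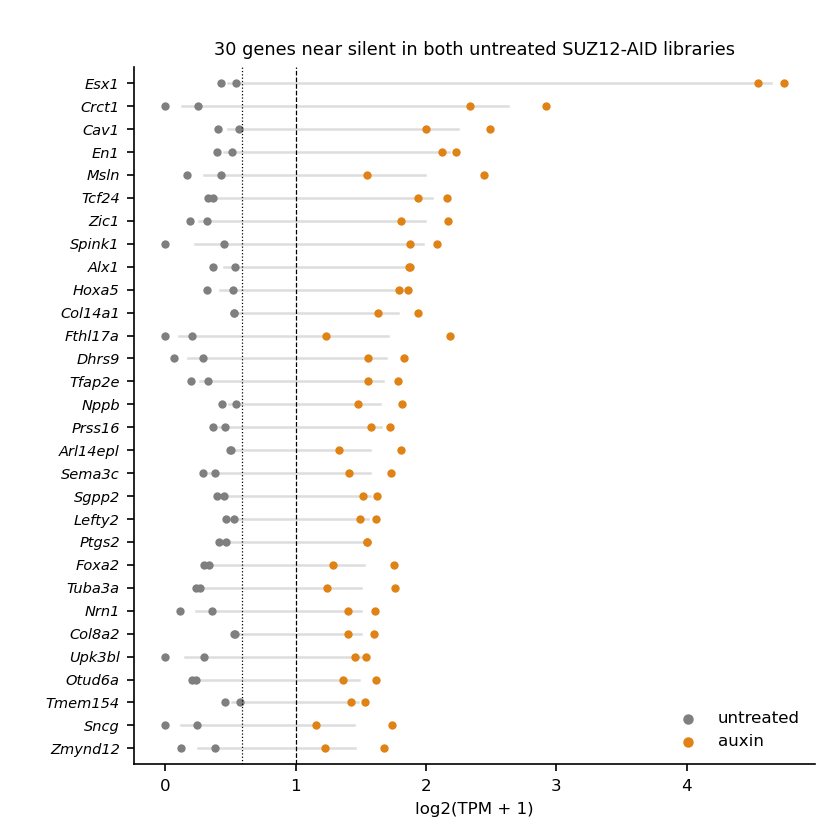
Level in each SUZ12-AID library of the 30 most abundant named genes that were switched on and passed the test, as log2(TPM + 1); grey points are untreated and orange points auxin libraries, and the dotted and dashed lines mark 0.5 and 1 TPM. The genes were chosen by these levels, so the gap is no test; apart from Esx1 at 22.3 and 25.8 TPM and Crct1 they stay under 5 TPM in both auxin libraries.

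Families of developmental transcription factors held both increases and decreases. In 10 families together, 202 of 386 genes were measured and 171 were near silent without auxin. Of the 202, 56 rose (27.7% against 6.91% of all genes) and 13 fell (6.44% against 0.894%), with a median log2 fold change of 0.43 against 0.06. Leaving out the 31 members that entered the test through 1 group alone, 40 of 171 rose (23.4%) and 12 fell (7.02%). Of the 171 near-silent members 12 were switched on, and all 9 paired-box genes were near silent without auxin and none met the limit for the test or for switching on. In the fit with no filter their median log2 fold change was 0.48, with no call.

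Homeobox genes outside the Hox clusters moved in both directions. Of 61 measured, 16 rose and 7 fell. Without members that entered the test through 1 group alone, 10 of 48 rose (20.8%) and 6 fell (12.5%). Besides those described above, the increases included the head and forebrain factor Otx1, the neural POU factor Pou3f1 and the endothelial and endodermal factor Hhex, and the decreases Evx1, Msx1 and Nkx2-3. In the Hox clusters 3 rose, Hoxa5, Hoxc13 and Hoxd10, and 3 fell, Hoxb1, Hoxb2 and Hoxb6, of 19 measured. Of the 19, 2 entered the test through the auxin libraries alone, Hoxa5 and Hoxd10. Of the other 17 genes 1 rose (5.88% against 6.07% of all such genes) and 3 fell (17.6% against 0.736%). Each of the 3 decreases was a Hoxb gene. Hoxc13 rose from 3.83 and 3.88 to 8.304 and 9.72 TPM, but not without auxin replicate 2. The Rhox cluster, 33 homeobox genes on the X chromosome known for germline and placental expression, had 28 near-silent members without auxin. Of the 7 measured 6 rose, 4 of the 7 entered the test through the auxin libraries alone, and near-identical copies may share reads. Rhox5, the most abundant, went from 40.2 and 35.9 to 73.9 and 98.04 TPM, and Rhox2a from 0.812 and 0.186 to 2.47 and 4.33 TPM.

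Forkhead genes had 10 increases and 1 decrease in 28 measured. Of the 28, 6 entered the test through the auxin libraries alone, and of the other 22 genes 7 rose (31.8%). Foxe1, a thyroid factor, rose from 1.21 and 1.39 to 5.52 and 4.03 TPM, Foxc2, a factor of paraxial mesoderm and lymphatics, from 0.743 and 0.966 to 3.33 and 3.8 TPM, Foxl2, an ovary factor, from 1.07 and 1.54 to 3.94 and 5.003 TPM, and Foxj1, the regulator of motile cilia, from 1.46 and 1.23 to 4.94 and 3.98 TPM. Of these Foxe1 and Foxj1 lost the call without auxin replicate 1 and Foxl2 without auxin replicate 2. Only Foxf1 fell in that family. SOX genes had 4 increases of 15: Sox18 (3.75 and 7.74 to 27.6 and 22.2 TPM), Sox2 (2.63 and 3.64 to 8.26 and 9.31 TPM), Sox3 (2.68 and 3.75 to 7.63 and 7.52 TPM) and Sox17 (1.201 and 1.46 to 3.42 and 3.25 TPM). Of the 4, Sox18 alone kept its call when either auxin replicate was left out. GATA genes had 2 of 6, with Gata3 at 9.04 and 7.67 TPM without and 20.3 and 19.7 TPM with auxin, and Gata2 at 13.98 and 13.7 TPM without and 22.9 and 23.8 TPM with auxin. In the T-box family only Tbx15 of 9 passed, and it entered the test through the auxin libraries alone. Of the other 8 genes 0 rose.

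The bHLH family held opposite changes in the heart. Hand2, a bHLH factor of the second heart field and limb, rose from 48.3 and 48.2 to 168 and 151 TPM (log2 fold change 1.71, SE 0.096, adjusted p = 0.001504), while its paralogue Hand1 fell (log2 fold change -1.23, SE 0.083, adjusted p = 0.00233). In the same family Twist1 rose and Twist2 fell, and the trophoblast factor Ascl2 rose from 1.63 and 2.099 to 5.65 and 7.21 TPM, among 5 increases and 2 decreases in 28. Of 29 ZIC, GLI, KLF, SNAI and EGR zinc-finger genes 9 rose, among them Klf2 (11.2 and 10.7 to 35.4 and 33.3 TPM) and Klf5 (16.7 and 15.5 to 40.2 and 52.4 TPM). The larger class of zinc-finger genes with numbered Zfp symbols had 8 increases in 344 (2.33%) and a median log2 fold change of -0.01.

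Cell-cycle inhibitors of the INK4 and CIP families rose in 4 of 7 cases. Besides Cdkn2a and Cdkn2b these were Cdkn1a, the p21 gene, at 150.5 and 141 TPM without and 255 and 265 TPM with auxin, and Cdkn1c, the p57 gene, at 141 and 124 TPM without and 213 and 206 TPM with auxin. Cdkn1c lost its call after median-of-ratios rescaling. Cdkn1a and Cdkn1c lie outside the Cdkn2a locus and were already abundant. Among 20 genes known as p53 targets 13 rose (65% against 6.91% of all genes), with a median log2 fold change of 0.74. That list was chosen with earlier results of these data known, so its share is a description and not a test. Perp, a desmosome-associated protein, went from 59.1 and 62.2 to 153 and 184 TPM, the kinase Plk2 from 52.5 and 56.5 to 112 and 127 TPM and the receptor Eda2r from 10.7 and 13.2 to 24.5 and 28.8 TPM, and Mdm2, Ccng1 and Bbc3 were also called. Trp53 itself had 314 and 322 TPM without and 309.8 and 297 TPM with auxin (adjusted p = 0.678). Of 22 proliferation genes 0 passed the limma test. Unadjusted p was under 0.05 for 13 of them, all lower, and 19 of the 22 had both auxin libraries below both untreated ones (15.8% of all genes did), with a median log2 fold change of -0.28. Pcna, for example, had 606 and 648 TPM without and 553 and 523 TPM with auxin (adjusted p = 0.138), and in the alternatives between 0 and 17 of the 22 fell, 8 of them in the weighted fit of 12 libraries.

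Signalling ligands and receptors also moved in both directions. Of 21 TGF-beta family ligands 6 rose and 3 fell. Of the 21, 4 entered the test through the auxin libraries alone, Bmp8b and Lefty2 among them, and 1, Gdf2, through the untreated ones. Their direction was fixed beforehand. Of the other 16 genes 4 rose (25% against 6.07% of all such genes) and 2 fell (12.5% against 0.736%). Tgfb2 rose from 6.88 and 7.52 to 19.2 and 21.3 TPM and Bmp6 from 6.54 and 7.595 to 16.7 and 19.8 TPM. Of a close pair of genes, Bmp8a rose from 1.01 and 0.579 to 3.13 and 4.59 TPM and its near copy Bmp8b from 0.426 and 0.5702 to 2.39 and 4.03 TPM. Bmp4 and Bmp7 were among the decreases. Of 12 WNT ligands 3 rose, Wnt6 (2.397 and 2.21 to 9.12 and 11.01 TPM), Wnt2b (0.831 and 0.607 to 2.97 and 3.53 TPM) and Wnt9a (6.71 and 7.51 to 14.9 and 16.8 TPM), and of 11 FGF ligands Fgf5 rose (0.485 and 0.556 to 2.598 and 2.25 TPM) and Fgf3 fell. Wnt2b and Fgf5 entered the test through the auxin libraries alone. Leaving out such members, 2 of 11 WNT ligands rose, and of 9 FGF ligands 0 rose and 1 fell. Receptor kinases and growth factor receptors had 8 increases (15.1% against 6.91% of all genes) and 4 decreases (7.55% against 0.894%) in 53. Egfr went from 2.24 and 3.39 to 6.99 and 10.9 TPM, Met, the receptor of hepatocyte growth factor, from 2.702 and 2.96 to 6.56 and 11.6 TPM, and Notch4, a receptor of vessels, from 1.19 and 0.948 to 4.58 and 3.97 TPM. The calls of Egfr and Met were lost without auxin replicate 2.

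Guidance cues and their receptors had 7 increases (12.1% against 6.91% of all genes) and 2 decreases (3.45% against 0.894%) in 58. Of the 52 that did not enter the test through 1 group alone, 5 rose (9.62% against 6.07% of all such genes). The median of the family turned from 0.13 to -0.01 after quantile normalization. Sema3e rose from 1.85 and 2.44 to 9.31 and 10.1 TPM, the endothelial receptor Robo4 from 0.673 and 1.23 to 7.29 and 6.05 TPM and the ephrin receptor Epha2 from 9.29 and 9.54 to 25.4 and 36.6 TPM. G protein-coupled receptors rose in 13 of 77 cases (16.9%), and Lgr5, a WNT-pathway receptor of stem cells, went from 0.545 and 1.77 to 4.797 and 6.69 TPM. Ion channel subunits rose in 7 of 101 cases (6.93%), a share close to that of all genes. Hcn2, a pacemaker channel, was one of them (2.79 and 2.18 to 7.61 and 7.398 TPM). Of 233 solute carriers 23 rose (9.87%) and 1 fell (0.429%), among them the iron exporter Slc40a1 at 3.79 and 4.43 TPM without and 12.2 and 15.3 TPM with auxin and the glutamate transporter Slc1a3 at 2.697 and 2.94 TPM without and 7.94 and 8.62 TPM with auxin.

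Epithelial, membrane-binding and matrix families are given next. Of 20 claudins and keratins 10 rose and 1 fell, with a median log2 fold change of 0.80, and after median-of-ratios rescaling 6 rose. Cldn3 went from 24.1 and 19 to 85.5 and 98.4 TPM and Cldn6 from 55.8 and 49.5 to 77.1 and 101.1 TPM, though Cldn6 lost its call after either rescaling and without auxin replicate 2. The summed mean level of this family was 2539 TPM without and 4399 TPM with auxin. Of 17 S100 proteins and annexins 10 rose, including Anxa3 at 18.7 and 22 TPM without and 51.1 and 60.3 TPM with auxin and Anxa8 at 2.01 and 2.22 TPM without and 5.91 and 9.33 TPM with auxin. Cadherins and protocadherins rose in 4 of 36 cases (11.1% against 6.91% of all genes). Of the 30 that did not enter the test through the auxin libraries alone, 3 rose (10%). The epithelial Cdh1 had 34.8 and 36.7 TPM without and 56.9 and 82.7 TPM with auxin. The endothelial Cdh5 had 4.95 and 8.31 TPM without and 18.8 and 23.1 TPM with auxin. Collagens and laminins rose in 6 of 42 cases, among them Col5a2, a fibrillar collagen chain, at 0.776 and 0.889 TPM without and 2.87 and 2.52 TPM with auxin, and Lama3, a laminin chain of epithelial basement membranes, at 0.724 and 0.791 TPM without and 2.32 and 3.17 TPM with auxin. Both calls were lost after quantile normalization, where 1 of the 42 rose. Of the 42, 6 entered the test through the auxin libraries alone and 1 through the untreated ones, and of the other 35 genes 2 rose (5.71%). Serpins rose in 4 of 12 cases, and Serpine2, the protease inhibitor nexin 1, went from 68.3 and 65.2 to 99.6 and 112 TPM, a call lost without auxin replicate 2.

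Housekeeping families had few calls, and several of those few were tissue-specific members. Of 83 cytosolic ribosomal proteins 1 rose, at a median of 0.01 that turned to -0.13 after median-of-ratios rescaling, and the exception was Rpl10l, a testis paralogue (4.88 and 3.03 to 11.05 and 14.5 TPM). Of 85 mitochondrial respiratory subunits the 1 that rose was Cox6b2, also a testis form (104 and 87.6 to 149 and 146 TPM), and it lost the call under that rescaling. Of 46 proteasome subunits the 2 that rose were the immunoproteasome subunits Psmb8 (26.6 and 27.7 to 49.3 and 50.6 TPM) and Psmb9 (4.33 and 3.94 to 11.1 and 10.4 TPM). Histone genes of S phase gave 1 increase, Hist1h2bc, and 1 decrease, Hist1h3a, in 60.

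Among 12 genes of PRC2 subunits 1 rose (8.33%), a share close to the 6.91% of all genes. Phf19, which encodes an accessory subunit that binds methylated H3, went from 2.24 and 1.89 to 5.42 and 7.37 TPM (adjusted p = 0.0243), a call lost without auxin replicate 2. The catalytic subunit gene Ezh2 had 128 and 131 TPM without and 113 and 107 TPM with auxin (adjusted p = 0.163) and Eed 44.02 and 49.4 TPM without and 52.4 and 57.4 TPM with auxin (adjusted p = 0.308). Of 21 genes of PRC1, the partner complex that ubiquitinates histone H2A, 2 rose (9.52%), also near the share of all genes. Among them was Bmi1, which went from 6.51 and 6.79 to 21.6 and 20.7 TPM (adjusted p = 0.00674).

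Genes of other lineages were counted list by list, and lists share some members. The lists were chosen with earlier results of these data known, so their shares here and below are descriptions and not tests. Of 22 endothelial genes 13 rose (59.1% against 6.91% of all genes) and 1 fell (4.55% against 0.894%), with a median log2 fold change of 1.12. Icam2, an adhesion molecule, went from 3.26 and 2.85 to 13.7 and 17.03 TPM, while Pecam1, a classical marker of the same cells, fell from 78 and 89.6 to 46.2 and 43.5 TPM (adjusted p = 0.0113). Pecam1 was the most abundant of 6 endothelial markers, 5 of which rose, and their sum was 92.3 and 109 TPM without and 107 and 104 TPM with auxin, with overlapping groups. Of 21 pluripotency genes 11 rose (52.4% against 6.91% of all genes), with a median of 0.94. Of the 21, 3 entered the test through the auxin libraries alone, and of the other 18 genes 9 rose (50% against 6.07% of all such genes). Utf1, a chromatin protein of embryonic stem cells, went from 36.8 and 32.6 to 78.4 and 96.1 TPM, while Nanog stood at 4.43 and 6.14 TPM without and 4.84 and 4.68 TPM with auxin (adjusted p = 0.845) and Pou5f1 at 113 and 90.5 TPM without and 127 and 154 TPM with auxin (adjusted p = 0.104). The 6 pluripotency markers summed to 132 and 111 TPM without and 158 and 195 TPM with auxin.

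Germline genes rose in 10 of 17 cases, with a median of 1.08, and 8 of the 17 entered the test through the auxin libraries alone. Taf7l, a testis form of a TFIID subunit, went from 2.71 and 2.37 to 7.28 and 8.501 TPM, Tex19.1 from 7.295 and 4.98 to 15.3 and 20.6 TPM and the germ-cell helicase Ddx4 from 1.45 and 1.66 to 3.99 and 7.07 TPM. Of 13 trophoblast and placenta genes 7 rose and 2 fell, the latter being Hand1 and Cdx2, and the 6 trophoblast markers summed to 244 and 221 TPM without and 146 and 133 TPM with auxin. Endoderm genes rose in 4 of 8 cases, but Afp, Ttr and Cer1 were at or near 0 in all 4 libraries. Of the 8, Foxa2 and Spink1 entered the test through the auxin libraries alone and could only be higher. Of the other 6 genes 2 rose. Neural genes rose in 4 of 11 cases. Of the 11, 2 entered the test through the auxin libraries alone, and of the other 9 genes 3 rose. Gap43, a growth-cone protein, had 9.999 and 9.45 TPM without and 27.4 and 23.9 TPM with auxin. The neuronal tubulin Tubb3 had 6.897 and 6.74 TPM without and 14.5 and 13.7 TPM with auxin, while Sox1, Pax6 and Neurog1 stayed under 1 TPM. Blood genes were split, with 2 of 15 higher, Gata2 and Lmo2 (8.12 and 8.702 to 25.7 and 30.5 TPM), and 4 lower, 3 globins and Nfe2. Of the 15, 5 entered the test through the untreated libraries alone and had to be lower with auxin, and of the other 10 genes 1 fell. Surface ectoderm markers summed to 2363 and 2239 TPM without and 3747 and 4104 TPM with auxin, and 4 of 5 rose. Of the 5 endoderm markers only Sox17 and Foxa2, which rose, exceeded 1 TPM, and the 5 summed to 1.65 and 1.72 TPM without and 5.01 and 5.86 TPM with auxin. The 5 neural markers summed to 34.98 and 35.1 TPM without and 53.4 and 53.2 TPM with auxin. The part of these cell types in the gene changes was not tested.

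Cardiac genes changed in both directions. Of 19 cardiac transcription factors 5 rose and 1 fell. Beyond Nkx2-5, Hand2 and Hand1, Hopx, a homeodomain-like regulator of heart growth, went from 2.15 and 2.36 to 10.4 and 9.99 TPM, and Irx4, a factor of the ventricle, from 1.56 and 1.39 to 5.41 and 6.88 TPM. Gata4 had 57.9 and 68.9 TPM without and 83 and 92.1 TPM with auxin (adjusted p = 0.0656) and Tbx20 24.1 and 36.4 TPM without and 35.1 and 36.8 TPM with auxin (adjusted p = 0.508). Of 19 sarcomere and contractile genes 3 rose and 1 fell, and their median of 0.08 turned negative after either rescaling. Myh7, a ventricular myosin heavy chain, went from 4.68 and 3.45 to 13.5 and 11.99 TPM and the embryonic light chain Myl4 from 25.8 and 19 to 50.5 and 44.3 TPM, while Myl9, a smooth-muscle light chain, fell from 60.9 and 57.6 to 39.9 and 37.8 TPM. Mesoderm genes gave 4 increases and 3 decreases in 20. Of the 20, 2 entered the test through the auxin libraries alone and 2 through the untreated ones. Of the other 16 genes 2 rose and 2 fell.

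**Figure D4:**
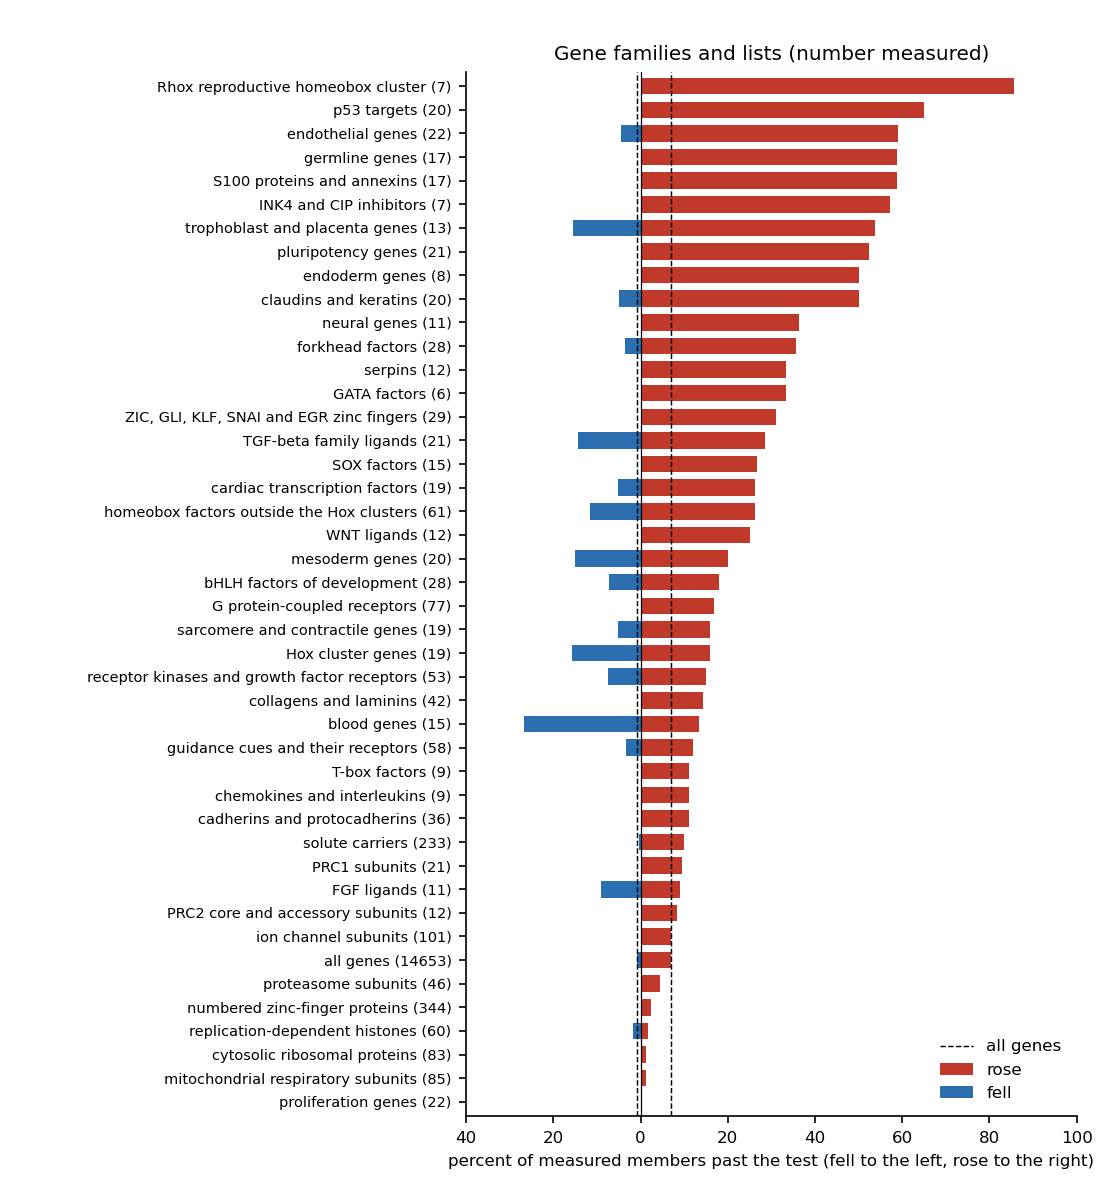
Share of the measured members of each family or list that rose (red, to the right) or fell (blue, to the left) in SUZ12-AID, in percent; the number measured is in parentheses and dashed lines mark all genes at 6.91% and 0.894%. Members and lists were chosen with earlier results of these data known. The Rhox cluster, p53 targets, endothelial and germline lists and S100 proteins and annexins have the longest bars to the right and blood genes the longest to the left, where 4 of 7 Rhox genes, 8 of 17 germline genes and 5 of 15 blood genes entered the test through 1 group alone, while ribosomal, respiratory and numbered zinc-finger genes stay inside the dashed lines.

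Changes in TPM, which are shares of a library, were led by other genes than fold changes. Summed over all called genes, the genes that rose gained 19545 TPM, and those that fell together dropped by 8439 TPM. The largest gain was that of Ftl1, the ferritin light chain, at 3031 and 2639 TPM without and 3642 and 3717 TPM with auxin, but its call was lost in 7 of the 15 alternatives, among them median-of-ratios rescaling and the omission of either auxin replicate. The keratin Krt18 rose from 1086 and 999.7 to 1636 and 1792 TPM, its partner Krt8 from 1054 and 1036 to 1556 and 1659 TPM and the autophagy receptor Sqstm1 from 658 and 650.2 to 978 and 1088 TPM. These 3 calls were lost under that rescaling. Cldn4, a tight-junction claudin whose call held in all 15 alternatives, had 193 and 173 TPM without and 505 and 594 TPM with auxin. Bc1, a neuronal small RNA, went from 353 and 241 to 616 and 659 TPM, the metallothionein Mt2 from 89.1 and 68.8 to 244 and 317 TPM and the small heat-shock protein Hspb1 from 75.5 and 58.5 to 224 and 251 TPM. Among genes with a name, the largest losses after Hand1 were those of Tubb5 (3207 and 3234 to 2627 and 2506 TPM), the glycolytic enzyme Pkm (1878 and 1889 to 1532 and 1472 TPM), Igfbp4 (1549.9 and 1492 to 1211 and 1088 TPM) and Eno1 (1243 and 1193 to 927 and 886 TPM). These 4, and Tuba1a, Tuba1b, Fscn1 and Ldha with them, lost their calls after median-of-ratios rescaling and without auxin replicate 2, so that of the 10 largest losses Hand1 and Polg alone kept their calls there.

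Some increases lay side by side in the genome. Among 13713 tested genes with a position in GENCODE vM21 (mm10), 102 runs of neighbouring genes rose together, 84 of 2 genes, 15 of 3 and 3 of 4. No chance expectation was computed for them. The runs named here were picked after their members were seen. One run of 4 was Rhox2h, Rhox5, Rhox6 and Rhox9 on chromosome X, 37668989 to 37901770. Another was Psmb9, Tap1, Psmb8 and Tap2 of antigen processing in the major histocompatibility complex (chromosome 17, 34181987 to 34216321). There the peptide transporter genes Tap1 and Tap2 went from 20.6 and 22.1 to 50.7 and 60.7 TPM and from 10.5 and 11.6 to 20.4 and 25.5 TPM. Mt3, Mt2 and Mt1 rose together on chromosome 8, Mt1 from 126 and 101 to 259.5 and 291 TPM. Dppa5a, Ooep and Ddx43, genes of egg and germline, formed a run on chromosome 9, and the crystallin gene Cryab rose beside Hspb2, from 37.1 and 28.5 to 96.9 and 109 TPM. By chromosome the share that rose ran from 4.14% on chromosome 16 to 9.45% on chromosome 6, with 9.36% on X.

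The SUZ12-AID effect was set beside those of the lines with degrons on MTF2 and JARID2, accessory subunits of PRC2, in a fit of all 12 libraries with 1 variance weight per line. Each line had its own untreated libraries. In that fit 66 genes rose (0.45%) and 130 fell (0.887%) in MTF2-AID (1.34% in all), 3763 rose (25.7%) and 3500 fell (23.9%) in AID-JARID2 (49.6% in all), and 966 rose (6.59%) and 213 fell (1.45%) in SUZ12-AID (8.05% in all). Of the 623 genes that rose at least 2-fold in SUZ12-AID, 10 rose and 34 fell in MTF2-AID, with a median log2 fold change of -0.11. In AID-JARID2 333 of the 623 rose and 54 fell, with a median of 0.49, against a background of 25.7% and 23.9%. The SUZ12-AID effect was higher than the mean of the other 2 for 306 of the 623 and lower for 2. That order is favoured by the choice of the 623 on their rise in SUZ12-AID, so it is a description. Over all genes the SUZ12-AID effect was higher for 1097 (7.49%) and lower for 320 (2.18%), 9.67% in all. These genes were kept by their levels in the SUZ12-AID libraries alone.

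Of the 30 largest increases 27 were larger in SUZ12-AID than in the mean of the other lines by the test of that difference, an order that choosing them by their size in SUZ12-AID favours. Tbx15 had 2.56 and 2.504 TPM in untreated and 2.29 and 3.31 TPM in auxin MTF2-AID, and 1.13 and 0.809 TPM without and 2.04 and 3.11 TPM with auxin in AID-JARID2. Nkx2-5 had 6.5 and 5.06 TPM without and 4.88 and 6.02 TPM with auxin in MTF2-AID and 1.47 and 1.65 TPM without and 1.67 and 1.25 TPM with auxin in AID-JARID2. The SUZ12-AID effect exceeded the mean of the other lines for both (difference in log2 fold change 3.06, adjusted p = 0.000505, and 3.13, adjusted p = 0.000302). Tbx15 was among the genes tested only through its level in the SUZ12-AID auxin libraries. Six2, higher with auxin in SUZ12-AID, had a log2 fold change of 0.33 in MTF2-AID and -0.82 in AID-JARID2. Esx1 was under 1 TPM in all 6 untreated libraries and reached 2.82 and 1.41 TPM with auxin in MTF2-AID and 2.78 and 2.22 TPM in AID-JARID2. Krt7 had log2 fold changes of 1.19 and 1.06 there, both past the test (adjusted p = 0.0129 and 0.000207).

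The leading decreases had a different relation to the other lines. Of the 20, 15 fell in AID-JARID2 and 4 in MTF2-AID, where 23.9% and 0.887% of all genes fell. The SUZ12-AID effect was lower than the mean of the other 2 for 4 of the 20 and higher for 3. Hand1 had 1884 and 1832 TPM without and 107 and 90.04 TPM with auxin in AID-JARID2, a log2 fold change of -4.23 there against 0.02 in MTF2-AID and -1.23 in SUZ12-AID. The SUZ12-AID effect on Hand1 lay 0.88 above the mean of the other 2 (SE 0.12, adjusted p = 0.00194), and it was not tested against AID-JARID2 alone. Hand2 went in opposite directions, with 51.6 and 43.5 TPM without and 4.53 and 3.83 TPM with auxin in AID-JARID2 and a rise in SUZ12-AID. Globin RNA was lower in the other lines from the start, and Hbb-bh1 had 5.78 and 3.54 TPM in untreated MTF2-AID and 0.947 and 0.354 TPM in untreated AID-JARID2. Of the 76 switched-on genes that passed in SUZ12-AID, 22 rose and 1 fell in AID-JARID2, where 25.7% of all genes rose and 23.9% fell. The 22 of 76 are thus close to the share of all genes that rose there. In MTF2-AID 0 of the 76 rose and 1 fell. Of all 133, 7 reached 1 TPM in both MTF2-AID auxin libraries and 30 in both AID-JARID2 auxin libraries.

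**Figure D5:**
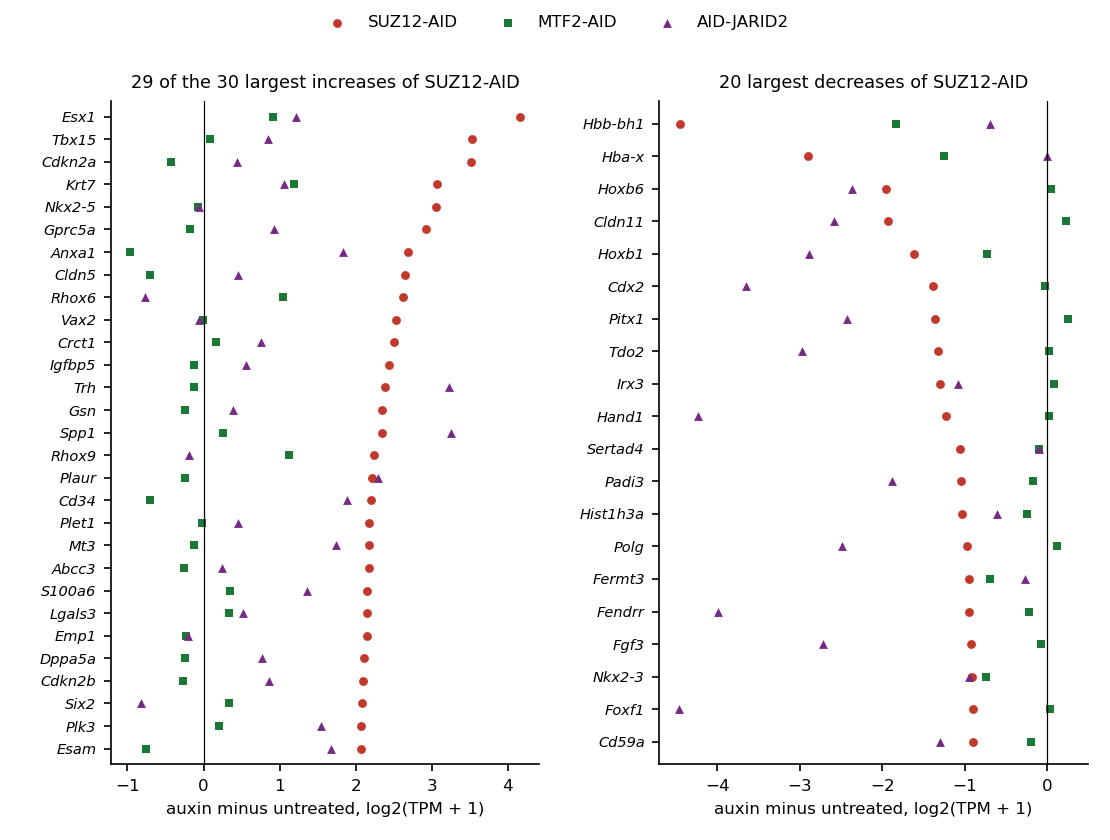
Difference between auxin and untreated means on the log2(TPM + 1) scale for 29 of the 30 largest increases (left) and 20 largest decreases (right) of SUZ12-AID, in SUZ12-AID (red circles), MTF2-AID (green squares) and AID-JARID2 (purple triangles). The genes were chosen on the red values; in the left panel most green points lie near 0 on either side, those of Krt7, Rhox9 and Rhox6 to the right and that of Anxa1 to the left, and most purple points lie between 0 and the red ones, with those of Trh, Spp1 and Plaur beyond, and in the right panel many purple points lie farther left than the red ones, as for Hand1 and Foxf1.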

How the data were processed

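The authors deposited 1 table of TPM per gene for 12 polyadenylated, stranded libraries. The submitters' processing notes name STAR 2.6.1d and mm10, while which program and gene models gave the TPM is not given in the sources used here. Reads per gene were recovered as the smallest whole numbers that fit a gene's steps (tolerance 0.01 reads), and for 6.12% of genes with 1 to 20 reads the implied gene length was far shorter than annotated, so low read numbers are approximate. Genes that reached 1 TPM in 2 or more SUZ12-AID libraries were tested on log2(TPM + 1) by limma 3.58.1 in R 4.3.3, with a trended prior (4.73 prior and 2 residual degrees of freedom) and Benjamini-Hochberg adjustment over 14653 genes, threshold 0.05. All adjusted p values come from limma. Fold changes on this scale understate those of low genes. The 12-library fit gave the lines weights of 0.479 (SUZ12-AID), 1.33 (MTF2-AID) and 1.57 (AID-JARID2). The code was tested on simulated data.

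Named genes were the 30 largest increases and 20 largest decreases among calls without overlap whose higher group averaged 5 TPM or more, up to 30 switched-on genes the named genes of the reverse kind, up to 4 called members per list, the 10 largest TPM changes each way, and the 5 largest differences between lines each way, leaving out placeholder symbols and short RNAs. Members and lists were chosen with earlier results of these data known. Named outside that rule, after their values were seen, were Otx1, Pou3f1, Hhex, Rhox5, Pecam1, Nanog, Pou5f1, Trp53, Mdm2, Pcna, Ezh2, Eed, Gata4, Tbx20, Tap1, Tap2, Mt1 and Cryab. Positions are from GENCODE vM21. Alternatives covered pseudocounts, filters, rescalings, limma-voom on recovered reads, a replicate block and the omission of each library. A few genes that the rule would name are not reported here. SUZ12 protein was not analysed here.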

Additional observations from a re-analysis of the deposited data

Results flagged for a closer look

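The auxin effect in SUZ12-AID differed from the mean effect of MTF2-AID and AID-JARID2, tested as a contrast in 1 limma fit of 12 libraries, for 1097 genes in the higher and 320 in the lower direction. Groups of 2 libraries are too small to look for single libraries that stand apart.

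On the higher side the cell-cycle inhibitor gene Cdkn2a had a difference in log2 fold change of 3.52, followed by Hand2 at 3.13, Nkx2-5 at 3.13, Esx1 at 3.09 and Tbx15 at 3.06. In SUZ12-AID the levels of Cdkn2a were 5.59 and 7.49 TPM without and 88.6 and 81.1 TPM with auxin, against 12.4 and 12.2 TPM and 10.2 and 7.74 TPM in MTF2-AID and 2.204 and 2.09 TPM and 3.91 and 2.69 TPM in AID-JARID2. Hand2, which has a known role in the right ventricle, had 54.7 and 53.5 TPM without and 65.98 and 75.5 TPM with auxin in MTF2-AID.

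On the lower side Hbb-bh1 had a difference of -3.19, Hba-x of -2.28, Apela, a peptide ligand of the apelin receptor, of -2.04, Gng3, a G protein gamma subunit of neurons, of -1.71 and Syt11, a synaptotagmin, of -1.64. In SUZ12-AID Apela had 34.5 and 35.7 TPM without and 25.6 and 23.7 TPM with auxin, against 47.2 and 53.5 TPM and 56.04 and 54.6 TPM in MTF2-AID and 19.9 and 18.7 TPM and 154 and 159.6 TPM in AID-JARID2. Gng3 had 13.4 and 10.9 TPM without and 9.67 and 11.7 TPM with auxin in SUZ12-AID, 12.2 and 9.74 TPM and 14.4 and 12.2 TPM in MTF2-AID, and 32.3 and 31.5 TPM and 227 and 232 TPM in AID-JARID2. Syt11 had 6.41 and 5.74 TPM without and 4.03 and 3.64 TPM with auxin in SUZ12-AID and 8.94 and 7.703 TPM and 42.3 and 42.3 TPM in AID-JARID2. For Apela, Gng3 and Syt11 the difference thus lay mainly in AID-JARID2, while for Cdkn2a, Nkx2-5 and Tbx15 it lay mainly in SUZ12-AID. The globin genes were lower with auxin in MTF2-AID too. There Hba-x had 2.51 and 1.2 TPM without and 0.364 and 0 TPM with auxin, and Hbb-bh1 5.78 and 3.54 TPM without and 1.43 and 0 TPM with auxin. In untreated AID-JARID2 Hba-x was at 0 and Hbb-bh1 at 0.947 and 0.354 TPM, which left little or no room for a fall. The globin differences thus depend on the starting levels.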

How the results depend on the processing

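Against 1013 genes that rose and 131 that fell, 95 rose and 23 fell with no filter on low values (24288 genes tested), 625 rose with a mean of at least 5 TPM, 635 rose and 205 fell after quantile normalization, and 266 fell after median-of-ratios rescaling. The 12-library fit with 1 spread per gene called 2428 and 658, the weighted one 213 decreases, and limma-voom on recovered reads 1836 increases. Replicate numbers were not used to pair libraries, since the labels do not say whether a shared number marks a pair. The correlation of deviations was 0.117, and with 2 pairs it cannot settle this. The fit with a replicate block called 2285 and 540. Leaving out 1 library gave 382 to 2239 increases and 112 to 820 decreases, lowest without auxin replicate 2 and highest without untreated replicate 2 (increases) or untreated replicate 1 (decreases). At least 2-fold, 623 increases became 140 with a pseudocount of 5, 83 with no filter, 317 at 5 TPM, 272 with quantiles, 1064 with voom and 297 to 850 without 1 library. The 45 decreases became 13, 20, 17, 75 and 29 in those 5 settings, 21 in the weighted fit, 75 with the replicate block and 67 to 89 without 1 library. Switched-on genes numbered 19 with near silent set under 0.2 TPM, 77 by the other lines' untreated libraries and 236 to 397 without 1 library, where 1 library fewer had to pass. Genes switched off numbered 18 at limits of 1 and 2 TPM and 61 to 101 without 1 library. The difference between lines was higher for 2016 and lower for 657 genes without weights, lower for 713 after median-of-ratios rescaling, and 119 to 1312 and 22 to 652 without 1 library. Under these alternatives 0 of the named calls changed direction. Of 197 named calls 49 held in every alternative that tested them, 146 were lost with no filter and 89 elsewhere. A gene was tested only where it met the filter. Genes that entered through 1 group alone were thus not tested without a library of that group. Esx1 and Tbx15 were tested in 13 of the 15 alternatives, and Crct1 and Hba-x in 12. Apart from the omissions and the fits with fewer genes, the cause was not tested. With 2 libraries per group and few reads per weak gene, genes not called cannot be taken as unchanged.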

Other observations

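Some called genes of smaller families were not described above. Of 9 chemokines and interleukins 1 rose, Cxcl16, from 5.25 and 4.42 to 8.76 and 12.1 TPM, a call lost in 6 of 15 alternatives, among them both other pseudocounts and quantile normalization. Among receptors and channels, the endothelial receptor Gpr182 rose from 1.12 and 0.731 to 3.84 and 4.12 TPM, the adhesion receptor Adgrl4 from 1.09 and 1.58 to 4.17 and 5.37 TPM, the acid-sensing channel Asic4 from 2.29 and 2.69 to 5.36 and 5.78 TPM and the glutamate receptor subunit Gria3 from 3.28 and 4.26 to 7.66 and 9.41 TPM. The 4 genes were weakly expressed in the untreated libraries, and no auxin library fell below an untreated one. The call of Asic4 was lost in 6 of 14 alternatives, that of Gria3 in 3 of 15, that of Adgrl4 without auxin replicate 2 and with no filter, and that of Gpr182 with no filter.

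Numbered zinc-finger genes with a call included Zfp296, known from pluripotent cells, at 6.88 and 6.68 TPM without and 16.6 and 18.5 TPM with auxin, and Zfp750, a factor of epidermal differentiation, at 14.8 and 16.2 TPM without and 34.1 and 49.8 TPM with auxin. The bHLH gene Tcf15, a factor of somites, rose from 1.01 and 0.346 to 2.55 and 2.51 TPM, a call lost in 8 of 14 alternatives including both rescalings, and the angiopoietin co-receptor gene Tie1 from 3.31 and 5.15 to 11.7 and 11.8 TPM. Nefm, a neurofilament subunit, rose from 3.34 and 2.92 to 6.202 and 6.83 TPM, a call lost in 6 of 14. Of the decreases, Sertad4 fell from 38.2 and 50.2 to 21.7 and 19.5 TPM, the complement regulator gene Cd59a from 7.56 and 6.57 to 3.35 and 3.25 TPM, and the integrin adaptor gene Fermt3, known from blood cells, from 8.66 and 9.62 to 3.9 and 4.61 TPM.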
